A study of Mus musculus with 12 samples.

Results

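The transcripts described here are those of the D-box activators *Dbp*, *Tef* and *Hlf*, of their antagonist *Nfil3* and of the clock output gene *Usp2*. These 5 genes were chosen by their symbols among the 38926 gene symbols counted in each library, and all 5 were among the 14488 genes with enough reads for a test. The libraries were made from poly(A) RNA of mouse liver, with 3 wild-type and 3 *Rev-erbα*-/- animals killed at ZT8 and 3 of each genotype killed at ZT20, where ZT counts hours from lights on. All animals were males on a 129Ola/C57BL6 background, given in the labels as 12 weeks old, and were kept in a light and dark cycle with free access to food. The *Rev-erbα*-/- mice, labelled Rev KO, lacked functional *Nr1d1*, the gene of the repressor REV-ERBα, in the whole body and came from heterozygous breeding pairs. Wild-type mice without this deletion served as the controls, and no group received a treatment.

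DBP, TEF and HLF form the PAR bZIP family, whose members bind as dimers to D-box elements and activate transcription. NFIL3, also called E4BP4, binds to the same elements and represses, so that the activators and NFIL3 compete for D-box genes, among them genes of drug, bile acid and lipid metabolism in the liver. *Dbp* is a classical target of CLOCK and BMAL1 acting on E-boxes, whereas *Nfil3* is known as a target of REV-ERBα, which represses at ROR response elements (ROREs), and of the ROR receptors, which activate there. *Usp2* encodes a ubiquitin-specific protease with a daily rhythm in the liver. The comparison of genotypes at both times asks which of these transcripts depend on REV-ERBα, and at which time of day.

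The sequences around the annotated starts are shown first, since the known inputs of these genes are E-boxes and ROREs. *Nfil3* lies at chr13:52967209-52981073 on the minus strand of mm10. Its RefSeq promoter window (250 bases before to 50 after the start, GRCm38.p6) held a RORE core, TAGGTCA, on the strand opposite to the gene, from base -12 to base -6 relative to the start. The 30 bases at chr13:52981040-52981069 hold this match, with the reverse complement of TAGGTCA in capitals, and the 216 bases just upstream of the annotated exon (chr13:52981074-52981289) hold none of the motifs searched.
Nfil3 match: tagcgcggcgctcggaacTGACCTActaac
Nfil3 upstream: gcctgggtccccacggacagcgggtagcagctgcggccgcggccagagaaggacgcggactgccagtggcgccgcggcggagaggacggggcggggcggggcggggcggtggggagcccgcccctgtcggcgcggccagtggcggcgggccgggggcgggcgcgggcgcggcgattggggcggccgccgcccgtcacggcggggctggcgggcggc

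*Tef* lies at chr15:81802421-81826863 on the plus strand and has 2 promoter windows in RefSeq. Each held an E-box, CACGTG, from base -127 to -122 in the first window and from base -138 to -133 in the second. The match of the first window is shown with its 30 bases at chr15:81802534-81802563, and the second with the 250 bases upstream of its start (chr15:81811164-81811413). The E-box is in capitals.
Tef first match: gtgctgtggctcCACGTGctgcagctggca
Tef second upstream: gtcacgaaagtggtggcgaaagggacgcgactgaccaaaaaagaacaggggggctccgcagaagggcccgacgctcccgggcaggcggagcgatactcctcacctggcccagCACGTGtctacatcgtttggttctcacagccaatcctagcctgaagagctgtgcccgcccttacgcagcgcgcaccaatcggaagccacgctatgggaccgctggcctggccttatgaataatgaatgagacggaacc

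The motifs searched on both strands were CACGTG and CACGTT (E-boxes), TTATGTAA and TTACGTAA (D-boxes), and AGGTCA and TAGGTCA (RORE cores, the second containing the first). Of 32851 promoter windows of this length, 7.15% held CACGTG, 4.68% CACGTT, 0.938% TTATGTAA, 0.119% TTACGTAA, 2.61% TAGGTCA and 16.3% AGGTCA. The promoter windows of *Dbp*, *Hlf* and *Usp2* held none of these letters. The genes, searched only within these windows, lie at chr7:45705088-45710203 (plus strand), chr11:90336536-90390895 (minus strand) and chr9:44067021-44095627 (plus strand), in this order. The upstream bases of the *Usp2* window lie inside the gene, at chr9:44084670-44084919. The first base of *Usp2*, at 44067021, was therefore outside the window. A match is a description of the sequence, and elements outside the window, such as those within introns, were not searched. The bases upstream of the start were rich in G and C in all members, from 60.4% in the second *Tef* window to 81.6% in *Nfil3*.

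Levels are given in CPM, that is read counts scaled to a common library size. *Nr1d1* itself had 128.6, 96.1 and 75.3 CPM in the wild-type livers at ZT8 and 63.0, 71.8 and 80.5 CPM in the *Rev-erbα*-/- livers. At ZT20 it had 2.28, 1.86 and 2.15 CPM in wild-type and 3.57, 2.96 and 2.09 CPM in *Rev-erbα*-/-. The genotypes overlapped at both times, and the counts per symbol do not separate the deleted part of the gene from the rest, so that they do not check the genotype labels. *Arntl*, which encodes BMAL1 and is a RORE gene, was at 0.652 ± 0.181 CPM (SD, n = 3) in wild-type livers at ZT8, against 24.2 ± 1.52 CPM in *Rev-erbα*-/- livers.

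Between 17641809 and 26060192 reads per library were counted on genes, so that 3 counts corresponded to between 0.117 and 0.167 CPM. Hepatocyte markers were high in every library (summed level of 5 markers from 48834 to 103176 CPM), whereas 5 lymphocyte and NK cell markers summed to between 10.4 and 16.5 CPM. The wild-type replicates 2 and 3 at ZT8 stood apart in 6 acute phase genes, with *Saa1* at 4969 and 6485 CPM against 60.7 CPM in replicate 1 and at most 96.8 CPM in the other groups. The tests of the 5 members were therefore also computed without these 2 libraries, whereas the ratios, levels per length, lists and nearest genes below include them. At ZT8, 0 of 5 hepatocyte, 0 of 5 Kupffer cell, 0 of 4 endothelial, 0 of 4 stellate and 0 of 4 erythroid markers passed between genotypes in edgeR. Their median log2 differences were, in this order, 0.42, -0.47, -0.08, -0.28 and 0.57, against 0.00177 over all tested genes. Of 4 bile duct markers, which summed to between 4.83 and 7.44 CPM in wild-type and between 9.97 and 15.5 CPM in *Rev-erbα*-/-, 1 was higher (*Sox9*, adjusted p = 0.00126 in edgeR). The part of this in the results was not tested. In bulk liver RNA, a lower share of a cell type and less RNA per cell cannot be told apart.

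*Nfil3* was the member that passed the test between genotypes in the fit over all 12 livers. In wild-type livers it was low at ZT8 and high at ZT20, whereas in *Rev-erbα*-/- livers it was high at both times. At ZT8, wild-type mice had 12.9, 12.0 and 11.4 CPM (225 to 324 reads) and *Rev-erbα*-/- mice 59.8, 60.1 and 58.5 CPM. The groups were far apart and the values within each were close together. *Nfil3* was 4.90-fold higher in *Rev-erbα*-/- (log2 difference 2.29, SE 0.0747, 95% interval 2.13 to 2.45, adjusted p = 3.746e-11 in edgeR's quasi-likelihood test). Among the 14488 genes it ranked 2 by adjusted p at ZT8 and 58 by the size of the difference. Without the wild-type replicates 2 and 3, the log2 difference was 2.20 (adjusted p = 1.186e-07 in edgeR).

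At ZT20, *Nfil3* was at 54.7, 54.1 and 60.8 CPM in wild-type and at 51.0, 48.6 and 49.4 CPM in *Rev-erbα*-/-. Every *Rev-erbα*-/- value lay below every wild-type value, but the log2 difference of -0.19 (SE 0.0685, 95% interval -0.33 to -0.04) did not pass (adjusted p = 0.185 in edgeR). The genotype effect at ZT8 exceeded that at ZT20 by 2.48 on the log2 scale (SE 0.101, adjusted p = 6.674e-10 in edgeR), which ranked 3 of all tested genes by adjusted p.

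The day to night change of *Nfil3* took a different direction in each genotype. From ZT8 to ZT20 it rose 4.66-fold in wild-type (log2 difference 2.22, SE 0.0745, adjusted p = 2.898e-11 in edgeR). In *Rev-erbα*-/- it fell 1.198-fold (log2 difference -0.26, SE 0.0686, adjusted p = 0.01641 in edgeR). The latter call was lost when *Rev-erbα*-/- replicate 2 of either time was left out, with adjusted p = 0.055 for the library of ZT8 and 0.0751 for that of ZT20.

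**Figure D1:**
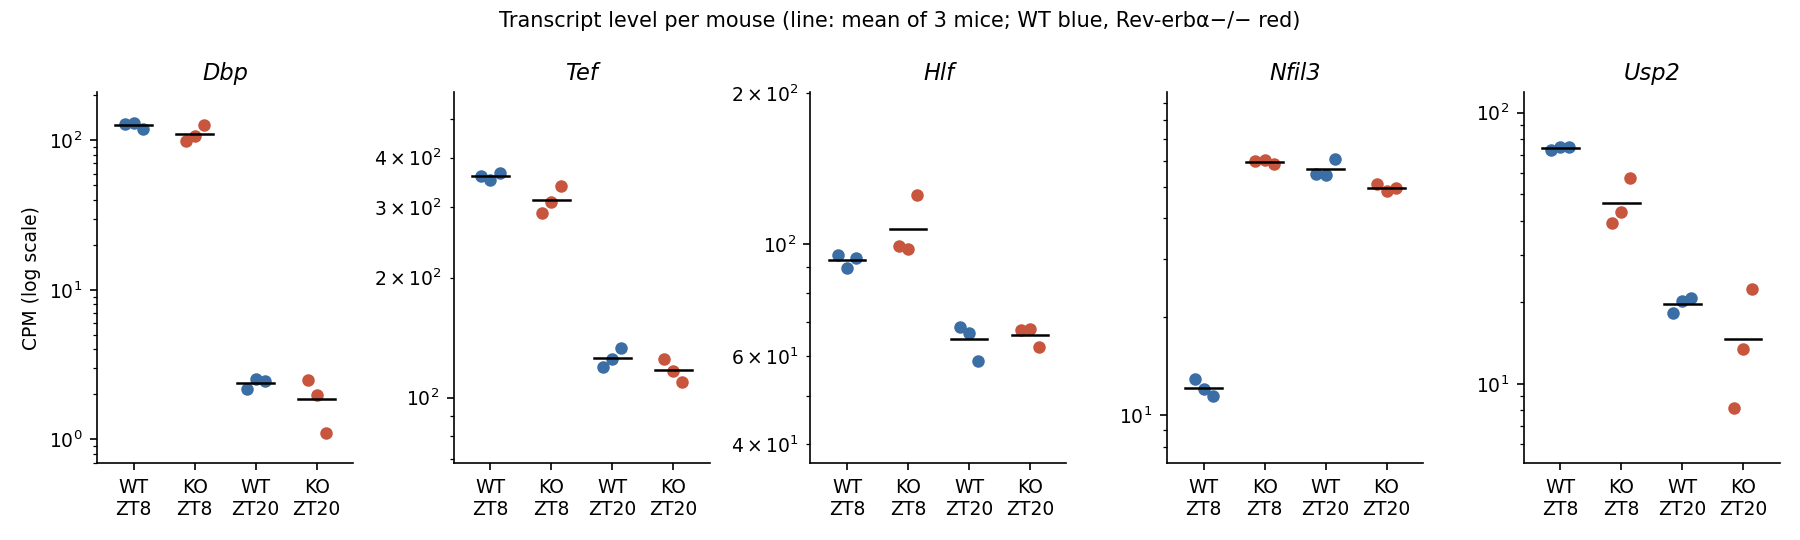
CPM on a log axis for each of the 12 mice, in 1 panel per gene and 1 column per group (wild-type blue, *Rev-erbα*-/- red), with a line at the mean of the 3 mice. *Nfil3* is between 11.4 and 12.9 CPM in wild-type at ZT8 and between 48.6 and 60.8 CPM in the other groups, whereas the other genes separate mainly by time.

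*Dbp*, the PAR bZIP gene with the widest swing, was high at ZT8 and low at ZT20 in both genotypes. At ZT8 it was at 129.4, 131.5 and 119.6 CPM in wild-type and at 99.2, 107.1 and 126.7 CPM in *Rev-erbα*-/-. The groups overlapped through *Rev-erbα*-/- replicate 3, and the log2 difference was -0.19 (SE 0.132, 95% interval -0.48 to 0.09, adjusted p = 0.416 in edgeR). At ZT20 it was at 2.19, 2.52 and 2.46 CPM in wild-type (47 to 57 reads) and at 2.52, 1.99 and 1.11 CPM in *Rev-erbα*-/- (25 to 60 reads). These also overlapped, with a log2 difference of -0.34 (SE 0.224, 95% interval -0.83 to 0.14, adjusted p = 0.548 in edgeR). It was -0.61 (adjusted p = 0.2069) without *Rev-erbα*-/- replicate 1 and -0.09 (adjusted p = 0.8918) without replicate 3 of ZT20, both in edgeR.

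*Dbp* was 53.0-fold lower at ZT20 than at ZT8 in wild-type (log2 difference -5.73, SE 0.179, adjusted p = 2.129e-10) and 58.8-fold lower in *Rev-erbα*-/- (log2 difference -5.88, SE 0.182, adjusted p = 9.271e-10, both in edgeR). The difference between these changes was 0.15 with a 95% interval from -0.41 to 0.71, so that a moderate difference in either direction lies within it. In *Rev-erbα*-/- livers the change of *Dbp* ranked 2 of all tested genes by adjusted p. Of the exon length of *Dbp*, 18.0% is shared with the overlapping gene *Sphk2*, and reads in a shared stretch were not counted for either gene.

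*Tef* was the most abundant of the activators in reads at every time. At ZT8 it was at 360.4, 351.9 and 365.2 CPM in wild-type and at 290.3, 310.1 and 338.6 CPM in *Rev-erbα*-/-. The groups did not overlap, but the log2 difference of -0.20 (SE 0.0801, 95% interval -0.37 to -0.03) did not pass after adjustment over all genes (adjusted p = 0.145 in edgeR). At ZT20 the values overlapped, with 119.5, 125.4 and 133.3 CPM in wild-type and 124.9, 116.8 and 109.6 CPM in *Rev-erbα*-/- (log2 difference -0.11, SE 0.0807, adjusted p = 0.621 in edgeR). *Tef* fell from ZT8 to ZT20 by 2.85-fold in wild-type and by 2.67-fold in *Rev-erbα*-/- (adjusted p = 6.238e-09 and 4.759e-08 in edgeR). The difference between these changes was -0.09 on the log2 scale, with a 95% interval from -0.33 to 0.15.

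*Hlf* had the smallest day to night change of the activators and the only positive genotype difference among them at ZT8. It was at 95.02, 89.6 and 93.9 CPM in wild-type and at 99.1, 97.7 and 125.6 CPM in *Rev-erbα*-/- at ZT8. All *Rev-erbα*-/- values were above those of wild-type, with replicate 3 well above the other two, and the log2 difference of 0.21 (SE 0.0924, 95% interval 0.01 to 0.41) did not pass (adjusted p = 0.181 in edgeR). At ZT20 it was at 68.6, 66.7 and 58.7 CPM in wild-type and at 67.5, 67.8 and 62.6 CPM in *Rev-erbα*-/-, which overlapped (log2 difference 0.03, 95% interval -0.17 to 0.23, adjusted p = 0.936 in edgeR). *Hlf* fell 1.44-fold from ZT8 to ZT20 in wild-type and 1.63-fold in *Rev-erbα*-/- (adjusted p = 0.0006878 and 0.0001297 in edgeR).

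*Usp2* had the largest negative genotype difference of the members at ZT8 and, relative to its mean, the widest spread among *Rev-erbα*-/- mice. At ZT8 it was at 72.5, 74.4 and 74.4 CPM in wild-type and at 39.3, 43.0 and 57.5 CPM in *Rev-erbα*-/-. The groups did not overlap, and the log2 difference was -0.66 (SE 0.283, 95% interval -1.30 to -0.02, adjusted p = 0.2002 in edgeR). This call depended on the libraries that entered the fit. With only the 6 libraries of ZT8, the difference of -0.67 passed (adjusted p = 0.01591), as it did without *Rev-erbα*-/- replicate 1 (adjusted p = 0.04449) or replicate 3 (adjusted p = 0.03549) of ZT20, all in edgeR.

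At ZT20, *Usp2* was at 18.2, 20.2 and 20.8 CPM in wild-type and at 8.18, 13.5 and 22.4 CPM in *Rev-erbα*-/-. The *Rev-erbα*-/- mice ranged from well below to above the wild-type values, and the log2 difference was -0.43 (SE 0.303, 95% interval -1.12 to 0.26, adjusted p = 0.599 in edgeR). It was -0.86 (adjusted p = 0.05056) without *Rev-erbα*-/- replicate 3 and -0.14 (adjusted p = 0.8679) without replicate 1 of ZT20, both in edgeR. Within this group *Rev-erbα*-/- replicate 3 was the highest in *Usp2* and the lowest in *Dbp*, *Tef* and *Hlf*. At ZT8, *Rev-erbα*-/- replicate 3 was the highest of its group in *Dbp*, *Tef*, *Hlf* and *Usp2* and the lowest in *Nfil3*. *Usp2* fell 3.73-fold from ZT8 to ZT20 in wild-type and 3.18-fold in *Rev-erbα*-/- (adjusted p = 0.001463 and 0.005697 in edgeR). With only the 6 *Rev-erbα*-/- libraries in the fit, the latter did not pass (adjusted p = 0.05194 in edgeR).

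Across the members, 1 of 5 passed an adjusted p of 0.05 between genotypes at ZT8, where 8.45% of all tested genes passed, and 4 of 5 had an unadjusted p under 0.05, against 23.5% of all genes. At ZT20, 0 of 5 passed against 3.63% of all genes in edgeR, with 1 of 5 at an unadjusted p under 0.05 against 14.6% of all genes, and DESeq2 also called 0. The interaction passed for 1 of 5, against 5.88% of all genes. The genotypes did not overlap for 4 of 5 members at ZT8 (*Tef*, *Hlf*, *Nfil3* and *Usp2*) and for 1 of 5 at ZT20 (*Nfil3*), against 25.6% and 22.5% of all tested genes. With 3 mice against 3, the exact permutation test of a single gene cannot give less than 0.1. Without the wild-type replicates 2 and 3 of ZT8, only 1 wild-type library of that time remained. The log2 differences at ZT8 then kept their signs, from -0.64 (*Usp2*) to 2.20 (*Nfil3*). The share of all genes at ZT8 depended on the libraries in the fit, of either genotype. With wild-type replicate 1, 2 or 3 of ZT8 left out, 1811, 542 or 749 genes passed at ZT8 in edgeR, against 1224 with all 12 libraries. With *Rev-erbα*-/- replicate 1, 2 or 3 of ZT8 left out, 882, 607 or 1193 genes passed.

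**Figure D2:**
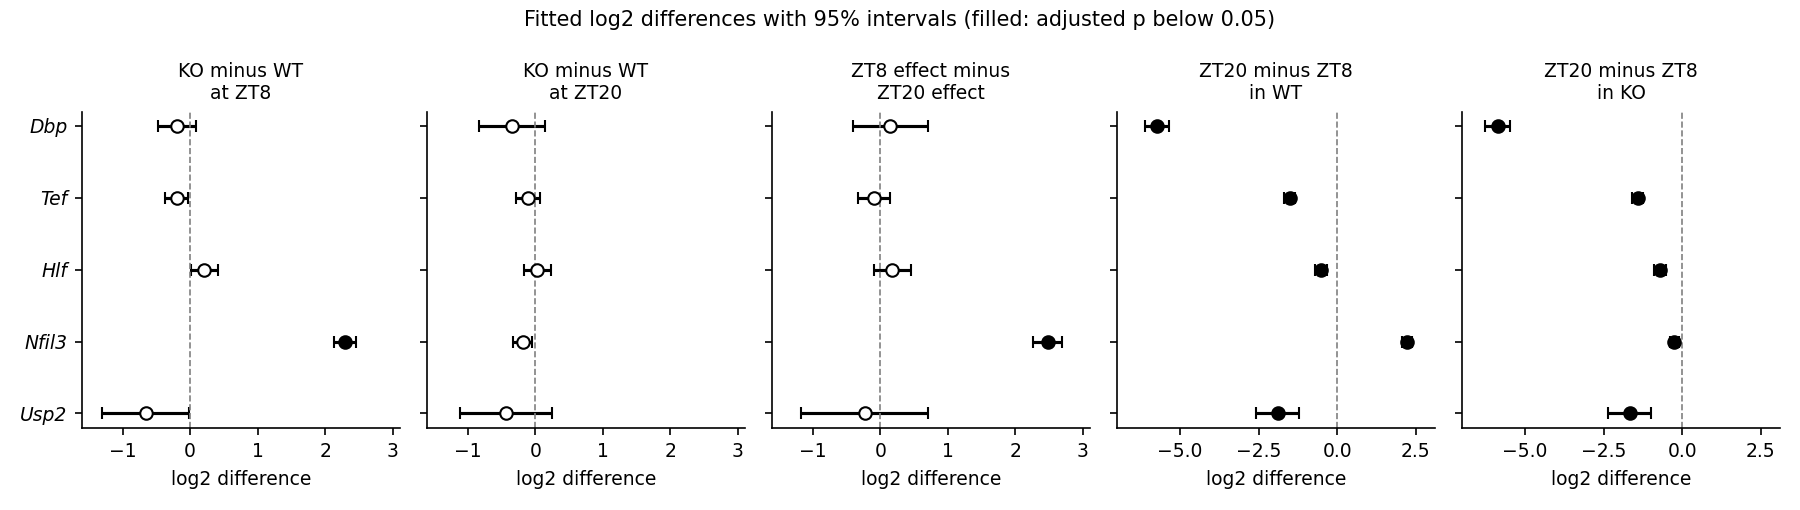
Log2 differences of each gene in the 5 comparisons, with 95% intervals from the fit over 12 libraries and filled points where the adjusted p is below 0.05. Between genotypes, and in the difference of the genotype effects, *Nfil3* alone has filled points (2.29 at ZT8 and 2.48 for the difference), whereas all 5 genes have filled points for the day to night change in both genotypes. The axes of the last 2 panels are wider than those of the first 3.

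The day to night change passed for 5 of 5 members in wild-type, 1 higher and 4 lower at ZT20, where 27.7% of all tested genes passed. In *Rev-erbα*-/- it also passed for 5 of 5, all lower at ZT20, where 17.5% of all genes passed. *Dbp*, *Tef*, *Hlf* and *Usp2* fell in both genotypes and *Nfil3* changed its direction. The intervals of the interaction for *Dbp* (-0.41 to 0.71) and *Usp2* (-1.17 to 0.71) were wide, and those for *Tef* (-0.33 to 0.15) and *Hlf* (-0.10 to 0.46) were narrower.

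**Figure D3:**
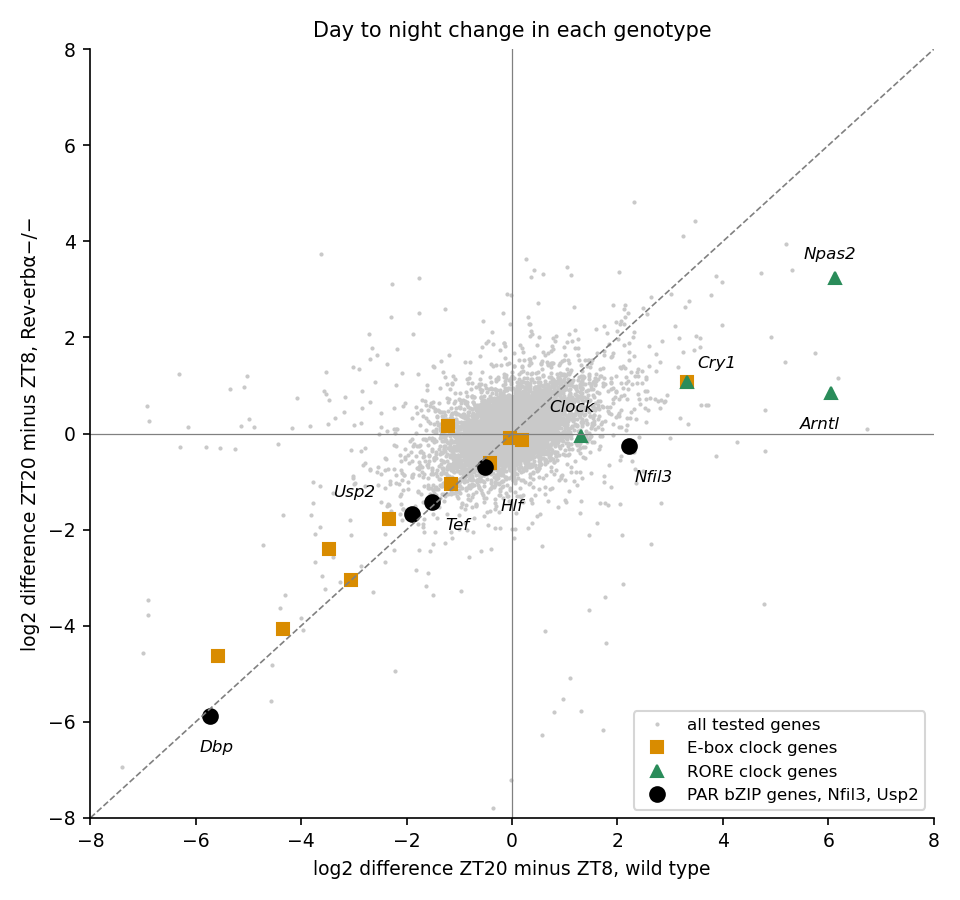
Log2 difference of ZT20 minus ZT8 in wild-type (horizontal) against *Rev-erbα*-/- (vertical) for all tested genes (grey, 18 genes beyond the axis limits of 8 not shown), the members (black), E-box clock genes (orange) and RORE clock genes (green), with a dashed line of equal change. *Dbp*, *Tef*, *Hlf* and *Usp2* lie near the line, and *Nfil3* lies at 2.22 and -0.26, below it together with *Arntl*, *Npas2*, *Cry1* and *Clock*.

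To compare levels between genes, CPM was divided by the length in kb of all annotated exons of a gene, over all its transcripts. This length was 7867 bases for *Tef* and 2026 bases for *Nfil3*. Which transcripts were present in these livers was not measured, so that the order between genes depends on the lengths used. In wild-type at ZT8, *Tef* (45.7 ± 0.858 CPM per kb, SD, n = 3) and *Dbp* (42.4 ± 2.12) were highest, followed by *Usp2* (15.3 ± 0.225), *Hlf* (13.9 ± 0.427) and *Nfil3* (5.98 ± 0.362). In *Rev-erbα*-/- at ZT8 the order was *Tef* (39.8 ± 3.09), *Dbp* (37.1 ± 4.73), *Nfil3* (29.4 ± 0.424), *Hlf* (16.1 ± 2.35) and *Usp2* (9.67 ± 1.99). *Nfil3* thus stood last in wild-type and in the middle of the order in *Rev-erbα*-/-. The values of *Tef* and *Dbp* overlapped in *Rev-erbα*-/- and not in wild-type, and no other neighbors in either order overlapped. The order of *Tef* and *Dbp* at ZT8 is uncertain in both genotypes. Of the exon length of *Dbp*, 18.0% is shared with another gene and its reads were not counted, against 2.45% for *Tef*.

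At ZT20 the order was the same in both genotypes. *Nfil3* was highest, at 27.9 ± 1.81 CPM per kb in wild-type against 24.5 ± 0.596 in *Rev-erbα*-/-, followed by *Tef* (16.0 ± 0.879 and 14.9 ± 0.971) and *Hlf* (9.68 ± 0.785 and 9.88 ± 0.439). *Usp2* (4.10 ± 0.282 and 3.05 ± 1.496) and *Dbp* (0.798 ± 0.0595 and 0.625 ± 0.237) were lowest. None of these neighbors overlapped in the values of the 3 mice. The level of *Dbp* per length is understated by the stretch that it shares with *Sphk2*. The first place of *Nfil3* at ZT20 rests on the division by length. In CPM, wild-type livers had 126 for *Tef*, 64.7 for *Hlf* and 56.5 for *Nfil3*. The *Rev-erbα*-/- livers had 117, 66.0 and 49.7 CPM in the same order.

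The balance of activators against the antagonist was described as the log2 ratio of their read counts within each library, which does not depend on the scaling of library sizes. At ZT8, *Dbp* over *Nfil3* was 3.33, 3.45 and 3.39 in the wild-type livers, against 0.729, 0.834 and 1.12 in those of *Rev-erbα*-/- mice. At ZT20 it was -4.65, -4.42 and -4.63 in the former, against -4.34, -4.61 and -5.48 in the latter. The genotypes stood clearly apart at ZT8 and overlapped at ZT20.

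*Tef* over *Nfil3* was 4.81, 4.87 and 4.998 in the wild-type livers at ZT8, against 2.28, 2.37 and 2.53 in those of *Rev-erbα*-/- mice, and between 1.13 and 1.29 in all 6 livers at ZT20. *Hlf* over *Nfil3* was 2.88, 2.90 and 3.04 in the wild-type livers at ZT8, against 0.727, 0.701 and 1.10 in those of *Rev-erbα*-/- mice, and between -0.05 and 0.48 at ZT20. The mean log2 ratio in *Rev-erbα*-/- minus that in wild-type at ZT8 was -2.50 for *Dbp*, -2.50 for *Tef* and -2.10 for *Hlf*, beside a difference of 2.29 for *Nfil3* itself. From ZT20 to ZT8 the ratio of *Tef* rose by 3.74 in wild-type and by 1.16 in *Rev-erbα*-/-, and that of *Hlf* by 2.75 and 0.43. The ratio of *Dbp* rose by 7.96 in wild-type and still by 5.70 in *Rev-erbα*-/-.

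**Figure D4:**
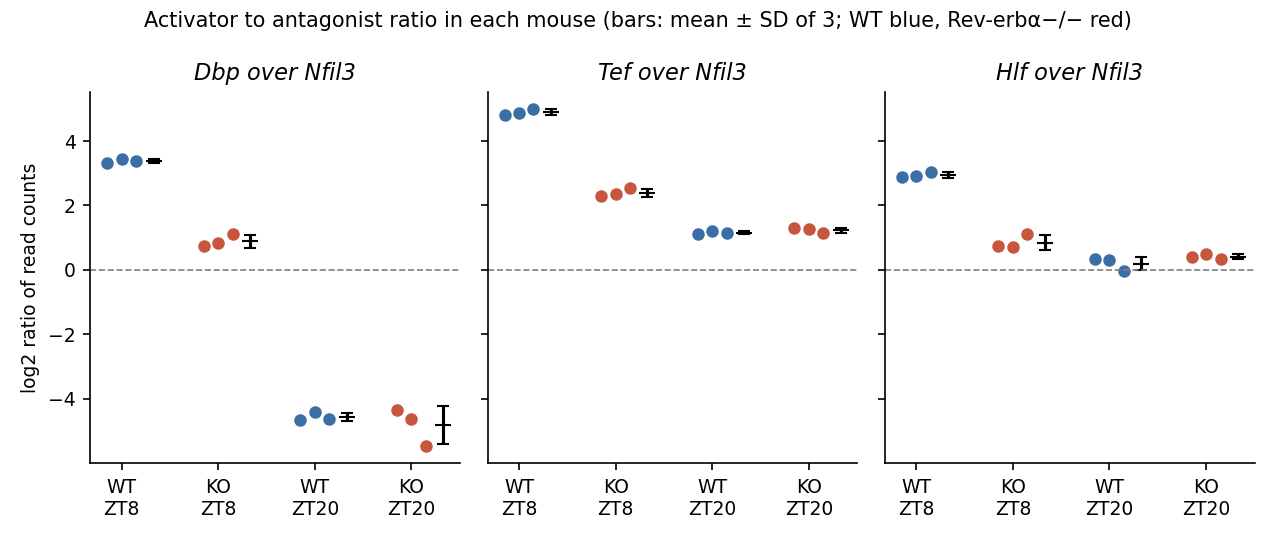
Log2 ratio of the reads of *Dbp*, *Tef* and *Hlf* over those of *Nfil3* in each mouse, with mean ± SD of the 3 mice of each group (wild-type blue, *Rev-erbα*-/- red). At ZT8 all *Rev-erbα*-/- livers lie below all wild-type livers, with group means of 0.893 against 3.39 for *Dbp*, and for *Tef* the *Rev-erbα*-/- livers at ZT8 lie at 2.39 ± 0.129, above the livers at ZT20.

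Summed per length, the activators at ZT8 amounted to 102 ± 1.42 CPM per kb in wild-type, against 93.0 ± 10.03 in *Rev-erbα*-/-, and at ZT20 to 26.5 ± 0.292 and 25.4 ± 1.59. Their composition moved with time in both genotypes. The share of *Dbp* in the sum is understated by the stretch that it shares with *Sphk2*. All shares, and the sum divided by *Nfil3*, also depend on the exon lengths used. At ZT8, *Dbp* made up 41.6% of the sum in wild-type livers, against 39.8% in *Rev-erbα*-/-, but 3.01% and 2.43% at ZT20, when *Tef* made up 60.5% and 58.6% and *Hlf* 36.5% and 38.9%. The sum divided by *Nfil3* per length at ZT8 was 17.1 ± 0.792 in wild-type livers, against 3.17 ± 0.388 in *Rev-erbα*-/-, and 0.952 ± 0.0603 against 1.04 ± 0.0562 at ZT20. Transcript ratios do not give the ratio of the proteins, which was not measured in these data.

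The clock genes that share the known inputs of these members were read beside them. Of the RORE clock genes, 4 are given here, and these 4 rose in *Rev-erbα*-/- at ZT8, with a median log2 difference of 2.50 against 0.00177 over all tested genes. The genes that rose were *Arntl* (log2 difference 5.18), *Npas2* (3.01), which encodes a partner of BMAL1, *Cry1* (2.00), which encodes a repressor of CLOCK and BMAL1, and *Clock* (1.32). At ZT8, *Npas2* had 0.0508 to 0.0996 CPM in wild-type, fewer than 3 counts per library, and 0.489 to 0.882 CPM in *Rev-erbα*-/-. The size of its difference (SE 0.558), which also enters the median, is therefore uncertain. The value of *Nfil3*, 2.29, lay within the range of the 4 that rose. At ZT20 the log2 differences of these 4 genes were from -0.24 to 0.11, and 0 of them passed in edgeR. Of all tested genes, 8.45% passed between genotypes at ZT8 and 3.63% at ZT20.

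Of 11 E-box clock genes, 1 rose (*Cry1*, which is in both lists) and 1 fell at ZT8. Of all tested genes, 8.45% passed at ZT8 and 3.63% at ZT20, in either direction. The gene that fell was *Wee1*, encoding a cell cycle kinase, with a log2 difference of -1.33 (adjusted p = 0.0001973 in edgeR). The median was -0.07, against 0.00177 over all tested genes, but the list was mixed, from -1.33 for *Wee1* to 2.00 for *Cry1*. It also includes *Nr1d1* itself (-0.48). *Dbp* (-0.19) and *Tef* (-0.20) did not pass, and their sign is not read as a likeness to this list. At ZT20, 1 of 11 rose and 0 fell, namely *Nr1d2* (log2 difference 1.00, adjusted p = 0.0452 in edgeR), the gene of REV-ERBβ. From ZT8 to ZT20, 7 of the 11 fell and 1 rose in wild-type, and 6 fell and 1 rose in *Rev-erbα*-/-. Over all tested genes, 27.7% passed between the times in wild-type and 17.5% in *Rev-erbα*-/-. Among 3 receptors that act on the RORE (*Nr1d1*, *Nr1d2* and *Rora*), 0 passed at ZT8 and 1 rose at ZT20, which is *Nr1d2* again.

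Of 15 liver genes linked to the PAR bZIP factors or NFIL3, 3 rose and 1 fell in *Rev-erbα*-/- at ZT8, and 1 rose and 2 fell at ZT20, where 8.45% and 3.63% of all tested genes passed. The median log2 difference was 0.43 at ZT8 and 0.03 at ZT20, against 0.00177 and -0.000676 over all tested genes. *Fgf21*, encoding a hormone of the liver, was higher at ZT8 (4.00 ± 0.414 against 0.4996 ± 0.169 CPM, log2 difference 2.97, adjusted p = 8.261e-05) and lower at ZT20 (0.366 ± 0.224 against 1.72 ± 0.609 CPM, log2 difference -2.19, adjusted p = 0.003336, both in edgeR). Its levels were low, but its genotype effect differed between the times as did that of *Nfil3*, here with a passing effect of opposite sign at each time.

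*Cyp2a5*, a cytochrome P450 gene, was higher in *Rev-erbα*-/- at both times (log2 differences 0.79 and 0.62, adjusted p = 0.002095 and 0.01794 in edgeR). *Cyp2c50* was higher at ZT8 (log2 difference 0.96, adjusted p = 0.02898) and *Acot3*, encoding an acyl-CoA thioesterase, was lower (log2 difference -3.12, adjusted p = 0.01533, both in edgeR). *Cyp2a4* was lower at ZT20 (log2 difference -5.98, adjusted p = 0.001509 in edgeR). *Cyp2a4* and *Cyp2a5* are near-identical copies, and *Cyp2c50* and *Acot3* also have close paralogs, so that the counts of uniquely mapped reads are uncertain for them. *Alas1* (heme synthesis), *Por* (cytochrome P450 reductase), *Cyp7a1* (bile acid synthesis) and *Ppara* (fatty acid oxidation) did not pass between genotypes at either time in edgeR, and had log2 differences from -0.35 to 0.43 at ZT8 and from -0.12 to 0.94 (*Alas1*) at ZT20. The other genes of this list also did not pass in edgeR. *Cyp4a14* (log2 difference 2.04 at ZT8 and 0.79 at ZT20), *Cyp4a10* (1.36 and 1.57) and *Cyp2b10* (0.92 and 1.88) had larger differences, with SE from 0.70 to 1.74. *Nr1i3*, *Acot1* and *Alb* had differences from -0.25 to 0.23 over both times. From ZT8 to ZT20, 6 of the 15 rose and 5 fell in wild-type, and 5 rose and 5 fell in *Rev-erbα*-/-. Over all tested genes, 27.7% passed between the times in wild-type and 17.5% in *Rev-erbα*-/-.

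The C/EBP family, whose bZIP members can bind related sites, had 1 of 6 genes higher at ZT8 (*Ddit3*, log2 difference 0.70, adjusted p = 0.004326 in edgeR) and 1 of 6 lower at ZT20. Of all tested genes, 8.45% passed at ZT8 and 3.63% at ZT20, in either direction. The C/EBP gene lower at ZT20 was *Cebpe*, with 0 reads in each *Rev-erbα*-/- library at ZT20 and a mean of 5.36 CPM in wild-type. *Cebpa* and *Cebpb*, encoding the main hepatocyte members, had log2 differences of -0.26 and -0.52 at ZT8 and did not pass in edgeR. The family's median was -0.11 at ZT8 and -0.17 at ZT20. Among 11 ubiquitin and kinase regulators of clock proteins, read beside *Usp2*, only *Btrc* passed, encoding an F-box protein of a ubiquitin ligase. Its log2 difference was -0.33 at ZT8 (adjusted p = 0.01668) and 0.32 at ZT20 (adjusted p = 0.03332, both in edgeR), and the median of the list was -0.02 at ZT8 and 0.009 at ZT20. Beside the shares of all tested genes, 1 call in a list of 6 or 11 genes is not read as a result about the list.

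Finally, the genes with the pattern most like that of each member were sought over the 12 livers, as the root mean square distance between centered log2 CPM values of the 12676 genes with a mean of at least 1 CPM. For *Nfil3* these were *Ddc* (distance 0.199), encoding aromatic amino acid decarboxylase, *Slc45a3* (0.205) and *Asap2* (0.310). As this choice over the same livers implies, each of them had, like *Nfil3*, a positive log2 difference at ZT8 (1.85, 2.04 and 1.58). Their differences at ZT20 were from -0.42 to 0.20. For *Dbp* they were *Nr1d1* (0.509), *Ciart* (0.953, listed as *Gm129*), which encodes a repressor of the clock, and *Rgs16* (1.17), all of which fell from ZT8 to ZT20 in both genotypes. Between genotypes, *Rgs16* had log2 differences of -2.15 at ZT8 and -2.42 at ZT20, unlike *Dbp* (-0.19 and -0.34).

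For *Tef* the nearest genes were *Cpt1a* (distance 0.176), the gene of the mitochondrial fatty acid importer, *Pcsk4* (0.184) and *Ripk2* (0.208). For *Hlf* they were *Coq10a* (0.0938), *Slco1b2* (0.108), which encodes a hepatic uptake transporter, and *Mpzl2* (0.109). For *Usp2* they were *Slc5a6* (0.311), a vitamin transporter gene, *Tbc1d30* (0.347) and *Fbxo21* (0.361). These distances include the size of the change, and only 2 of the 15 named genes remained when every gene was scaled to the same SD.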

How the data were processed

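Per the labels and the study's methods, poly(A) RNA was sequenced by the authors on an Illumina HiSeq, with TopHat for alignment to mm10 and HTSeq for counting of unique alignments by gene symbol (union mode, minimum quality 10, strand ignored). They deposited raw counts for 38926 symbols and 5 summary lines, which were left out. The processing notes also name SAMtools and DESeq2 1.6.3. Groups came from the labels. Genes with few reads were removed with filterByExpr (14488 remained), libraries were scaled by TMM, and 4 group means were fitted over 12 samples with edgeR 4.0.16 (glmQLFit and glmQLFTest, robust) in R 4.3.3, with Benjamini-Hochberg adjustment over all tested genes and a threshold of 0.05. The fit was tested on simulated data. The SE is the log2 difference divided by the root of F. CPM are TMM-scaled and their SD is over 3 mice. P-values come from F, which sets each difference against the spread between animals, estimated over all groups and moderated across genes. Interval widths follow read depth and this spread.

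Positions and exon lengths came from GENCODE M21, and promoter windows from RefSeq (GRCm38.p6), which held all 5 members. Named beside the members and *Nr1d1* were up to 3 genes per list and genotype comparison with the largest significant difference, any gene of a list of at most 6, and the 3 nearest genes per member (prior count 2). *Alas1*, *Por*, *Cyp7a1*, *Ppara* and the other genes of their list that did not pass were added after their values were seen. The members and lists were chosen with earlier results of these data known, and 1 gene was taken out of the RORE lists after its values were seen and is not reported here, so that their counts and medians are not those of complete lists. Alternatives were DESeq2 1.42.0, other scalings, other filters, the 6 samples compared, a replicate block and leaving out samples. Same-numbered samples did not deviate together (18 correlations from -0.08 to 0.07), so the numbers were not used to pair them.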

Additional observations from a re-analysis of the deposited data

Results flagged for a closer look

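The genotype effect at ZT8 minus that at ZT20 passed the interaction test in edgeR for 14 of the genes named above. Of all tested genes, 5.88% passed. Many of the named genes were picked from their lists for a large passing difference at ZT8 or ZT20. The interaction is built from these same differences, so the count is no independent result. Among the members, the gene that passed was *Nfil3*, with 2.48 on the log2 scale (SE 0.101, adjusted p = 6.674e-10), positive because the effect was 2.29 at ZT8 and -0.19 at ZT20. Among the RORE clock genes it was *Arntl* with 5.20 (SE 0.162, adjusted p = 3.93e-11), *Npas2* with 2.90 (SE 0.606, adjusted p = 0.009723), *Clock* with 1.36 (SE 0.12, adjusted p = 5.037e-06) and *Cry1* with 2.24 (SE 0.166, adjusted p = 1.066e-06). The value of *Npas2* rests on fewer than 3 counts in each wild-type library at ZT8. The genes nearest to *Nfil3* also passed, with 2.00 for *Ddc* (SE 0.158, adjusted p = 1.972e-06), 2.47 for *Slc45a3* (SE 0.165, adjusted p = 4.622e-07) and 1.39 for *Asap2* (SE 0.114, adjusted p = 2.431e-06), and were chosen for this likeness. *Wee1* had -1.37 (SE 0.241, adjusted p = 0.003177) and *Btrc* -0.65 (SE 0.110, adjusted p = 0.002376). *Ddit3* had 0.67 (SE 0.186, adjusted p = 0.04681) and *Fgf21* 5.16 (SE 0.511, adjusted p = 2.048e-05).

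*Cyp2a4* had 6.64 (SE 1.34, adjusted p = 0.02474), which rests on the wild-type livers at ZT20 and on unique reads of a gene with a near-identical copy. *Cebpe* had a fitted value of 10.51 (SE 2.00, adjusted p = 0.02786). This value depends on the prior count, since *Cebpe* had 0 reads in all *Rev-erbα*-/- livers at ZT20.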

How the results depend on the processing

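*Nfil3* at ZT8 stayed between 2.28 and 2.29 (log2) under the other tools, scalings, filters and the replicate block (2.29, adjusted p = 1.793e-09 in edgeR). The replicate block changed no call of a member. With only the 6 samples compared, 2 members passed at ZT8, since *Usp2* was called at -0.67, and *Usp2* lost its change in *Rev-erbα*-/- at -1.67. Leaving out samples gave 1 to 2 members at ZT8 (*Usp2* from -0.84 to -0.56). The night change of *Nfil3* in *Rev-erbα*-/- ranged from -0.28 to -0.24. The sign varied for *Hlf* at ZT20 (-0.029 to 0.074, below 0 without wild-type replicate 3 of ZT20) and, without *Rev-erbα*-/- replicate 3 of ZT20, for the interaction of *Dbp* (-0.10 to 0.41) and *Usp2* (-0.52 to 0.20). The omission of both wild-type libraries with high acute phase genes was chosen after seeing the data. At ZT20, 25 to 60 reads limit the precision of *Dbp*.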
